A study of Homo sapiens with 3 samples.

Results

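The NR4A, EGR and GEM immediate early genes are a set of 10 genes named by symbol: the orphan nuclear receptors NR4A1, NR4A2 and NR4A3, the zinc finger transcription factors EGR1, EGR2 and EGR3, the small GTP-binding protein gene GEM, the immediate early response genes IER2 and IER3, and the phosphatase gene DUSP1. They were read on the 3 arrays of a study of KYSE150 cells, an established cell line of human oesophageal squamous carcinoma origin. Cultures had received pcDNA3.1 LOXL2 delta72, pcDNA3.1 LOXL2 WT or the vector as control, and total RNA was taken 48 h later from each. LOXL2 is lysyl oxidase like 2, an amine oxidase that crosslinks collagen and elastin, and the labels name the delta72 form without describing it. All probe sets paired with 1 symbol among the 10 were used, which gave 30 probe sets for 9 genes, out of 18132 genes on the array. EGR2 had no such probe set in the annotation used here and has no value. Each condition had 1 array, so no test was possible, and "higher" and "lower" describe single arrays. The genes were chosen by symbol with these arrays' differences from control already known, GEM and NR4A3 being among the highest genes.

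Immediate early genes are switched on by signals that reach factors already present in the cell, without new protein synthesis. Serum response factor acts at the CArG boxes of genes such as EGR1, and CREB acts at cyclic AMP response elements (CREs) of genes such as the NR4A family. Their RNAs are short-lived and their induction by growth factors, calcium or stress is usually transient. The NR4A and EGR products are themselves transcription factors, GEM inhibits voltage-gated calcium channels, and DUSP1 inactivates MAP kinases.

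The transfected gene, the array scale and the cell type were checked first. The brightest LOXL2 probe set read log2 14.06 with delta72 and 14.05 with WT, against 7.46 on the control array. All values in this report are deposited log2 intensities or differences between them, and a difference of 1 is 2-fold. Of the squamous epithelial markers, 7 of 7 that were measured, among them KRT5, CDH1 and SFN, lay above the filter on dim genes, a mean of log2 5.27. Of the fibroblast markers 1 of 7 did, as did 3 of 5 blood cell markers, with CD68 brightest, and 3 of 4 endothelial markers, while PTPRC, the pan-leucocyte marker, read at most 3.08. In RNA from a whole culture, a change in the share of responding cells and a change per cell cannot be told apart.

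Promoter windows of NR4A3, EGR1 and DUSP1 are shown as examples of measured members whose start regions hold several of the elements named above. RefSeq windows of GRCh38.p14, from 250 bases before to 50 bases after an annotated start, were matched for 6 of the 10 genes: NR4A1, NR4A3, EGR1, EGR2, IER2 and DUSP1. They were searched on both strands for the CRE TGACGTCA, for its first 5 bases (TGACG, the CRE core, which also counts where it lies inside a CRE), for the CArG box, for the EGR site GCGNGGGCG and for the NR4A site AAAGGTCA. In the windows printed 5′ to 3′ on the gene's strand, capitals mark CRE cores, full CREs and CArG boxes. The NR4A3 window lies at chr9:99821635-99821934 on the plus strand, the EGR1 window at chr5:138465229-138465528 on the plus strand and the DUSP1 window at chr5:172771146-172771445 on the minus strand.
NR4A3: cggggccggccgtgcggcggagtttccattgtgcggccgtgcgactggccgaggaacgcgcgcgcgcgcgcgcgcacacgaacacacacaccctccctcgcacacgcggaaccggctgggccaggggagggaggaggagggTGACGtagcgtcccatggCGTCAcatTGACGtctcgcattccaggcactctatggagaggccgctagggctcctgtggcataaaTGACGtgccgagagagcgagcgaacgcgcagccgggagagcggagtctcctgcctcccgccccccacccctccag
EGR1: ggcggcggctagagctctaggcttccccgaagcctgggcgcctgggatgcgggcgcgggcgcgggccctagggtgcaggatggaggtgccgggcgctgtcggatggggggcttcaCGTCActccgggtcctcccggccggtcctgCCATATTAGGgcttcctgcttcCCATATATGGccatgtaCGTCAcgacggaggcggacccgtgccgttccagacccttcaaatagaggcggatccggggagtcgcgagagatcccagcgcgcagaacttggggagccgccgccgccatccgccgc
DUSP1: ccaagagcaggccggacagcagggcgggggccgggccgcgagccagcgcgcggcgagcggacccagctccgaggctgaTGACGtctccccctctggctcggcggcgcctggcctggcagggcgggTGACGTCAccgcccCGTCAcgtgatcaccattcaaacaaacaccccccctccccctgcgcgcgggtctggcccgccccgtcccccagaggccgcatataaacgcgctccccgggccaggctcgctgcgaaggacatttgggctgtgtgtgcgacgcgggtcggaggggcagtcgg

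The NR4A3 window held 4 CRE cores, at 109, 91, 83 and 25 bases before the start, and no CArG box. At least 4 CRE cores stood in 0.313% of the 35116 windows in the table, and at least 1 stood in 24.6%. The EGR1 window held 2 CArG boxes, at 105 and 83 bases before the start, 2 CRE cores and 1 EGR site. A CArG box stood in 1.29% of all windows, and 2 or more stood in 0.0313%, while an EGR site stood in 9.43%. The DUSP1 window held 1 full CRE, at 125 bases before the start, and 4 CRE cores, of which 2 lie inside that CRE on opposite strands. A full CRE stood in 1.85% of all windows. IER2 had 1 CRE core, 1 of the 3 EGR2 windows had 1 CArG box and 2 CRE cores, another had 1 EGR site, and neither NR4A1 window had a match to any of these motifs. The NR4A site, in 1.22% of all windows, was in none of the members' windows. A match is a string of letters in the window and does not show binding. A window without a match says nothing about any other start of its gene, so the NR4A1 result covers its listed windows alone. Which starts these cells use was not tested.

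**Figure D1:**
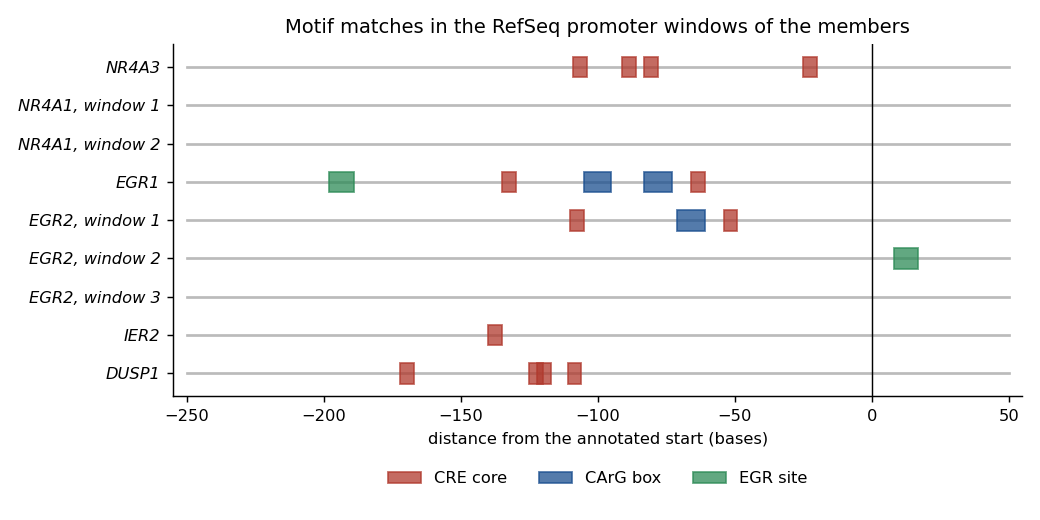
Positions of CRE cores (red), CArG boxes (blue) and EGR sites (green) in the RefSeq promoter windows of 6 members, as distance in bases from the annotated start, which is the vertical line. NR4A3 holds 4 CRE cores and no CArG box, whereas EGR1 holds 2 CArG boxes. Both NR4A1 windows are empty, and any other start of that gene was not searched.

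Against the control array, GEM and NR4A3 were higher on both LOXL2 arrays, and the other 7 measured genes stayed within 1.5-fold of control on their brightest probe sets. NR4A1 and IER3 were lower with LOXL2 WT and close to control with LOXL2 delta72. EGR1 was 1.15-fold and EGR3 1.17-fold lower with delta72, and IER2 was at most 1.06-fold from control. The genes of the set therefore did not share 1 direction on these arrays.

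Each gene was represented by its brightest probe set, and all 9 measured genes passed the filter, NR4A3 through the LOXL2 arrays. With delta72, 2 of 9 genes were at least 1.5-fold higher than control, where 1.28% of all 12232 genes above the filter were, and 0 of 9 were at least 1.5-fold lower, where 0.499% of all genes were. With WT, again 2 of 9 were higher, where 1.85% of all genes were, and 0 of 9 lower, where 0.867% of all genes were. At 2-fold, GEM was the 1 gene higher with delta72, beside 0.123% of all genes, and GEM and NR4A3 were the 2 higher with WT, beside 0.18%. None of the 9 was 2-fold lower with delta72, beside 0.0164% of all genes, or with WT, beside 0.0981%. The set was put together with these differences known, so nothing is read from its counts. Over all genes, the calls split as 157 higher and 61 lower with delta72 and as 226 higher and 106 lower with WT. After a shift of the arrays to a common median the splits were 123 and 77 with delta72, and 169 and 139 with WT, and the counts for the set stayed at 2 higher and 0 lower. The median difference of the 9 genes was 0.03 with delta72 and -0.05 with WT, beside 0 and -0.0094 over all genes. Both comparisons use the same control array.

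**Figure D2:**
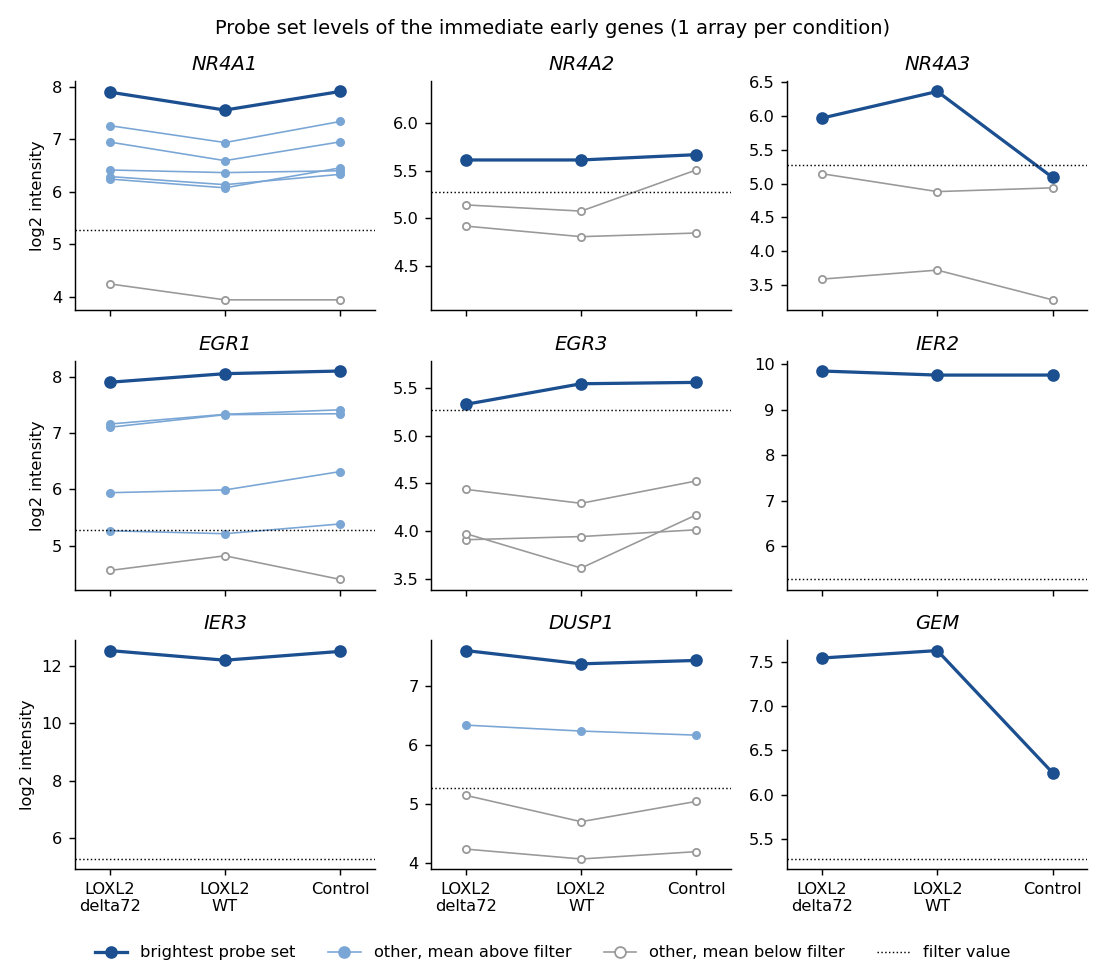
Deposited log2 intensity of every probe set of the 9 measured genes on the LOXL2 delta72, LOXL2 WT and control arrays, 1 line per probe set, with the filter value of 5.27 as a dotted line. GEM and the brightest NR4A3 probe set sit lowest on the control array, whereas the NR4A1 probe sets and IER3 are lowest, or level with control, on the WT array.

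GEM had the largest difference from control of the set. Its 1 probe set read 7.54 on the delta72 array and 7.63 on the WT array, against 6.25 on the control array. Both LOXL2 arrays lay more than 1 log2 unit above the control. The differences were 1.30 with delta72, or 2.45-fold, and 1.38 with WT, or 2.60-fold. GEM ranked 8th from the top of the 12232 genes with delta72 and 4th with WT. Between both forms GEM differed by -0.08, and 45.6% of all genes differed by at least as much. With 1 probe set, GEM has no second reading on these arrays.

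Relatives of GEM in its family of small GTP-binding proteins were dim, close to the filter value of 5.27 on each array, which limits what they could show. RRAD read 5.37 on the delta72 array and 5.27 on the WT array, against 5.39 on the control array. It was at -0.02 with delta72 and -0.13 with WT, and REM1 was at -0.11 and 0.03.

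NR4A3 (also NOR1) was the member of the NR4A family that was higher. Its brightest probe set read 5.97 on the delta72 array and 6.36 on the WT array, against 5.09 on the control array. The control value lay below the filter, so the gene passed it through the LOXL2 arrays. The differences were 0.88 with delta72, or 1.84-fold, and 1.27 with WT, or 2.41-fold, which ranked 27th and 6th from the top of all genes. The other probe sets of NR4A3 did not show this size. One read 5.14 on the delta72 array and 4.88 on the WT array, against 4.94 on the control array, which gave 0.21 and -0.06. The dimmest read 3.59 on the delta72 array and 3.72 on the WT array, against 3.28 on the control array, which gave 0.31 and 0.44. The SD of the difference over the 3 probe sets was 0.36 with delta72 and 0.67 with WT, so the size of the NR4A3 difference rests on 1 probe set. With the median over its probe sets on each array in place of the brightest, NR4A3 was at 0.21 with delta72 and -0.06 with WT, and no longer reached 1.5-fold. The median of its 3 differences was 0.31 with delta72 and 0.44 with WT, also short of 1.5-fold.

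NR4A1 (also NUR77) had a different pattern. Its brightest probe set read 7.90 on the delta72 array and 7.56 on the WT array, against 7.92 on the control array. The WT array was the lowest, and the delta72 and control arrays were close. The difference was -0.01 with delta72 and -0.36 with WT, a 1.28-fold lower level, and the WT value ranked 649th from the bottom. Of 7 probe sets, 6 were lower with WT than with control and 1 was equal. The 6 above the filter had an SD of 0.14 in that difference, and they ranged from -0.03 to -0.40. With the median over the probe sets on each array, NR4A1 was at -0.09 with WT, but the WT and control medians came from different probe sets. The median of the 7 differences was -0.36.

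NR4A2 (also NURR1) was dim. Its brightest probe set read 5.61 on the delta72 array and 5.61 on the WT array, against 5.67 on the control array, and both differences were -0.06. A second probe set, below the filter, read 5.14 on the delta72 array and 5.08 on the WT array, against 5.51 on the control array, which gave -0.37 and -0.43. The third differed by 0.07 and -0.04. The 3 probe sets thus gave values from near 0 to 1.35-fold lower with WT.

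**Figure D3:**
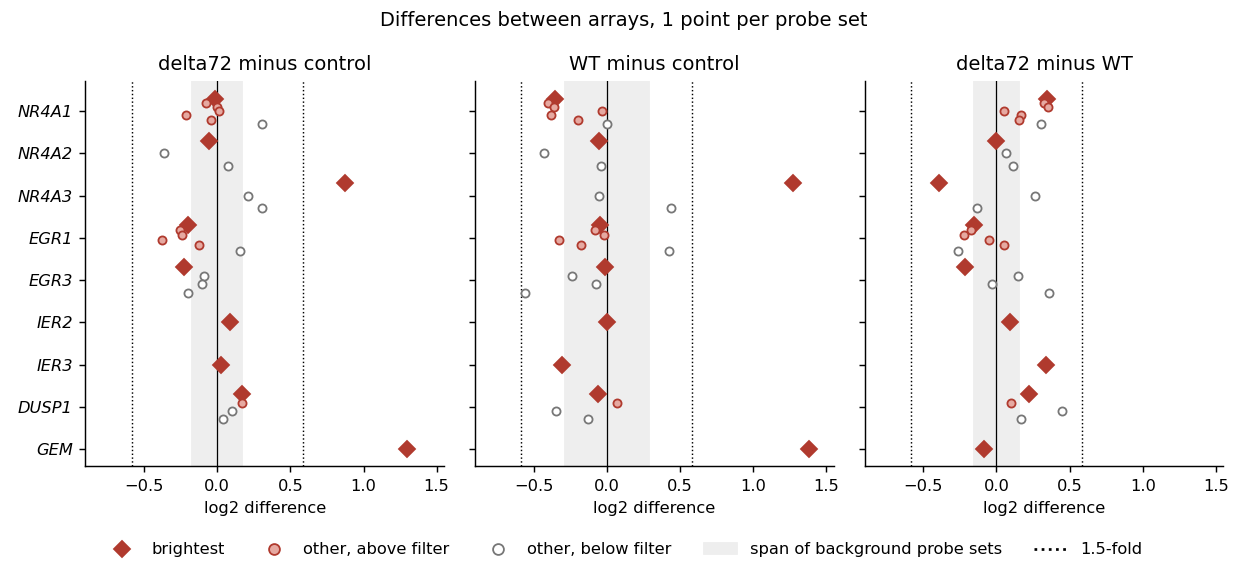
Log2 difference of every probe set for delta72 minus control, WT minus control and delta72 minus WT, with the brightest probe set of each gene as a diamond and probe sets below the filter as open circles. Only the brightest probe sets of GEM and NR4A3 lie beyond the 1.5-fold lines in the comparisons with control, no probe set lies beyond them in delta72 minus WT, and the grey band is the span of the background probe sets.

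EGR1 was slightly lower with delta72. Its brightest probe set read 7.91 on the delta72 array and 8.07 on the WT array, against 8.11 on the control array. The delta72 array was the lowest and the other arrays were close to each other. The difference was -0.20 with delta72 and -0.05 with WT. All 5 probe sets above the filter were lower with delta72 than with control, from -0.12 to -0.38 with an SD of 0.09, and all 5 were also lower with WT, from -0.02 to -0.33. The 6th went the other way, at 4.55 with delta72 and 4.82 with WT, against 4.39 on the control array.

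EGR3 read 5.33 on the delta72 array and 5.54 on the WT array, against 5.56 on the control array, on its 1 probe set above the filter. The differences were -0.23 with delta72 and -0.01 with WT, and the WT value turned to 0.02 under quantile normalization. All 4 probe sets were lower than control on both LOXL2 arrays, but 3 of them read at most 4.53 on any array. The difference of EGR3 with delta72 was matched or exceeded in size by 24.1% of all genes.

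IER3, whose product is a short-lived regulator of cell survival, read 12.54 on the delta72 array and 12.20 on the WT array, against 12.51 on the control array. The WT array was the lowest. The difference was 0.03 with delta72, or -0.0044 after the shift to a common median, and -0.31 with WT, a 1.24-fold lower level. IER2, which encodes a nuclear protein, read 9.84 on the delta72 array and 9.76 on the WT array, against 9.76 on the control array. Each of these genes had 1 probe set.

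DUSP1 read 7.60 on the delta72 array and 7.38 on the WT array, against 7.44 on the control array. The delta72 array was the highest, at a difference of 0.17, and the WT array was at -0.06. All 4 probe sets were higher with delta72 than with control, from 0.04 to 0.17. With WT, 3 of 4 were lower and 1 was higher.

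The comparison of both LOXL2 forms does not use the control array. Here, on their brightest probe sets, NR4A1, IER3 and DUSP1 were higher with delta72 than with WT, and NR4A3, EGR3 and EGR1 were lower, none of them by 1.5-fold. With the median over the probe sets of a gene on each array, NR4A3 turned to 0.26 and EGR3 to 0.09, and NR4A1 was at 0.05. The median of the differences of single probe sets was -0.13 for NR4A3, 0.06 for EGR3 and 0.31 for NR4A1. Of all genes above the filter, 0.18% were at least 1.5-fold higher with delta72 than with WT and 0.0409% at least 1.5-fold lower, and of the 9 members 0 were in either direction. At 2-fold these shares were 0.0164% and 0% of all genes. NR4A1 was 0.34 higher, or 1.27-fold, and ranked 158th from the top of all genes. All 7 of its probe sets were higher with delta72, from 0.05 to 0.35. IER3 was 0.34 higher, or 1.26-fold, and ranked 170th. DUSP1 was 0.23 higher, with 4 of 4 probe sets in that direction. NR4A3 was 0.39 lower, ranked 42nd from the bottom, with 2 of 3 probe sets lower and 1 higher by 0.26. EGR1 was 0.15 lower, with 5 of 6 probe sets in that direction. EGR3 was 0.22 lower on its brightest probe set, with 2 of 4 lower. GEM, at -0.08, and NR4A2, at 0, lay close together on both arrays.

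Background probe sets, which match no human gene and differ in their number of G and C bases, moved with some of these differences. Of the 23 on the array, the 12 with 14 or more G and C bases were all lower with WT than with control, from -0.10 to -0.29. The same 12 were all lower with delta72 than with control, from -0.04 to -0.17, and all higher with delta72 than with WT, from 0.04 to 0.15. The WT differences of NR4A1 and IER3, and their delta72 minus WT differences, have the same signs as these and are larger than the largest of them. The delta72 differences of EGR1, -0.20, and EGR3, -0.23, also share the background sign, and are slightly larger in size than the largest background difference. The delta72 difference of DUSP1, 0.168, is smaller in size than the largest background difference in that comparison, -0.173, and has the opposite sign. On the control array the background probe sets read 10.84 at 25 G and C bases, 8.77 at 24 and 6.17 at 20. IER2, at 9.76, lay above all but the first of these. The base composition of the members' own probes was not compared. It is therefore not known whether members other than IER3, which lay above every background probe set, exceed their own background there. The GEM control value, 6.25, lay below the background probe sets with the most G and C bases, so its folds carry this limit too. The part of base composition in the differences of the set was not tested.

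**Figure D4:**
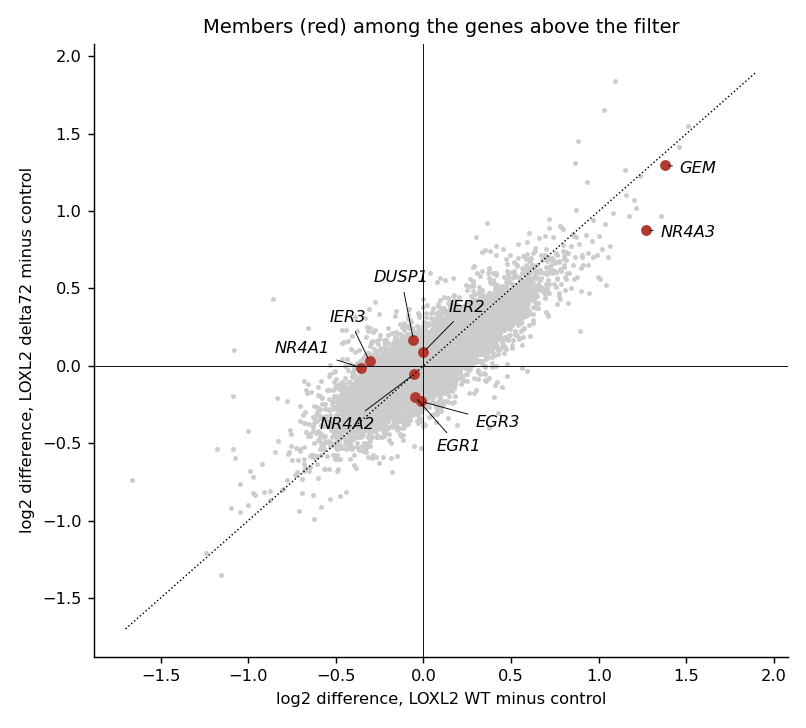
Log2 difference from control with LOXL2 WT (x axis) and with LOXL2 delta72 (y axis) for the genes above the filter, LOXL2 left out, with the 9 measured members in red and equal differences on the dotted line. GEM and NR4A3 sit at the upper right with few other genes, NR4A1 and IER3 sit left of zero at a delta72 difference near 0, and both axes share the control array.

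The genes whose pair of differences from control was most like that of a member were found by Euclidean distance over the 2 comparisons, which use 3 arrays. For GEM they were ABCA13, a transporter gene, at a distance of 0.141, DHRS2 at 0.158 and ODC1, which encodes ornithine decarboxylase of the polyamine pathway, at 0.232. Within a distance of 0.2 of GEM lay 2 genes. For NR4A3 they were GRIP1 at 0.124, ZNF425 at 0.134 and ZSCAN12 at 0.156, and 3 genes lay within 0.2. They were matched to the brightest NR4A3 probe set, whose size its other probe sets did not show. GRIP1, ZNF425 and ZSCAN12, like the genes nearest to GEM, each had 1 probe set above the filter. GRIP1 read 5.72 on the delta72 array and 6.10 on the WT array, against 4.75 on the control array, so that it also passed the filter through the LOXL2 arrays. The same holds for ABCA13, at 4.80 on the control array, and ZSCAN12, at 5.03.

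The other members for which such genes were sought had more of them. Within 0.2 of NR4A1 lay 1141 genes, with FAM110C, LRRC56 and C20orf96 nearest, and within 0.2 of IER3 lay 1409, with RAB40C, FAM124A and ICAM5 nearest. EGR1 had 3787 genes within that distance, with PCLO, KNL1 and METTL4 nearest, and NR4A2 had 5906, with ZNF837, BCL11A and OBP2B nearest.

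Other immediate early transcription factors were read from a separate list, and 18 of its 19 genes lay above the filter. This list and those below were also chosen with earlier results of these data known, so nothing is read from their counts. With delta72, 4 of 18 were at least 1.5-fold higher than control, beside 1.28% of all genes, and 0 lower, beside 0.499%. With WT, 2 were higher, beside 1.85% of all genes, and 2 lower, beside 0.867%. KLF10, a Krüppel-like repressor, read 9.43 on the delta72 array and 9.49 on the WT array, against 8.33 on the control array, which gave 1.10 and 1.15 with an SD over 2 probe sets of 0.04 and 0.01. Like GEM, it was more than 2-fold higher on both arrays and close between them. JUN, an AP-1 subunit, was at 0.86 and 0.60, and ATF3, a stress-induced factor, was at 0.69 and 0.47. The 4th gene with delta72 was CSRNP1 at 0.60, where its 2 probe sets disagreed, with an SD of 0.48. JUNB was lower, at -0.43 with delta72 and -0.67 with WT, and the other gene lower with WT was BHLHE40 at -0.64. CSRNP1 and BHLHE40 were named after their values were seen. FOS, also named so, was at -0.09 and -0.22.

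Other immediate early signalling genes and RNA regulators gave 18 genes above the filter out of 22. With delta72, 2 were at least 1.5-fold higher and 1 lower, beside 1.28% and 0.499% of all genes. With WT, 0 were higher and 3 lower, beside 1.85% and 0.867%. ID1, an inhibitor of basic helix-loop-helix factors, was lower on both arrays, at -0.68 with delta72 and -0.65 with WT. PER1, a circadian repressor, was at -0.10 and -0.68, with an SD of 0.43 over 3 probe sets in the WT difference. PPP1R15A, a phosphatase subunit of the stress response, was at 0.64 and 0.29, and the kinase gene SGK1 at 0.60 and 0.37. The 3rd gene lower with WT was IER5L at -0.59, named after its value was seen.

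Between both forms, these genes were mostly higher with delta72. Of the transcription factors 14 of 18 were higher, with a median of 0.20, and of the signalling genes 15 of 18, with a median of 0.15. Over all genes 50.4% were higher, with a median of 0.0013. In the signalling list 1 gene, PER1, was at least 1.5-fold higher, and in the transcription factor list 0 were, beside 0.18% of all genes. PER1 was at 0.587, just over the 1.5-fold line of 0.585, with an SD of 0.31 over 3 probe sets. NR4A1, IER3, DUSP1 and IER2 shared this direction and NR4A3, EGR1 and EGR3 did not. The 12 background probe sets rich in G and C bases were also higher with delta72 than with WT.

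The other dual-specificity phosphatases included DUSP6, an ERK phosphatase that is itself induced by ERK signalling. It read 7.68 on the delta72 array and 7.58 on the WT array, against 8.29 on the control array, or -0.61 and -0.72, with an SD over 4 probe sets of 0.07 and 0.09. It was the 1 gene of 9 above the filter that reached 1.5-fold, in both comparisons with control. Of all genes, 0.499% were at least 1.5-fold lower with delta72 and 0.867% with WT. DUSP3, at 0.23 with delta72, DUSP9 and DUSP8 differed by at most 1.23-fold in the 3 comparisons. The sign of the DUSP6 difference was the opposite of that of DUSP1 with delta72.

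Factors that act on immediate early promoters were read next. Of all genes, 1.28% were at least 1.5-fold higher than control with delta72 and 0.499% lower. With WT these shares were 1.85% and 0.867%. None of the 5 genes of the SRF and ternary complex list above the filter reached 1.5-fold, with SRF itself at 0.15 and 0.15 and its coactivator gene MRTFA at 0.25 and 0.10. Of the 7 CREB family and coactivator genes 0 reached 1.5-fold, with a list median of 0.20 with delta72 and 0.25 with WT. The acetyltransferase genes CREBBP, at 0.46 and 0.53, and EP300, at 0.20 and 0.53, had the largest differences. The SD over 5 CREBBP probe sets was 0.19 with delta72 and 0.36 with WT, and EP300 had 1 probe set above the filter. Next came the CREB coactivator genes CRTC3, at 0.34 and 0.26, and CRTC2, at 0.25 and -0.04. The corepressors of the EGR factors were at -0.14 and -0.30 for NAB1 and at 0.09 and -0.02 for NAB2. The retinoid X receptors, with which NR4A1 and NR4A2 pair, were at -0.05 and 0.08 for RXRA and at -0.24 and -0.30 for RXRB. In the ERK cascade 9 of the 14 listed genes had a probe set with 1 symbol, and all 9 lay above the filter. EGFR, at -0.30 with delta72 and -0.67 with WT, was the 1 that reached 1.5-fold, with WT. MAPK3, an ERK kinase gene, was at -0.24 and -0.36.

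Genes of the unfolded protein and stress response, which include ATF3 and PPP1R15A, were mostly higher on both arrays, 10 of 12 with each form. Of all genes, 49.7% were higher than control with delta72 and 48.0% with WT. With delta72, 6 of 12 were at least 1.5-fold higher and 0 lower, beside 1.28% and 0.499% of all genes. With WT, 4 were higher and 0 lower, beside 1.85% and 0.867%. The list was chosen with earlier results of these data known, so nothing is read from these counts. The list median was 0.60 with delta72 and 0.28 with WT. DDIT3, the transcription factor CHOP, read 8.98 on the delta72 array and 8.36 on the WT array, against 7.33 on the control array. All 12 genes were higher with delta72 than with WT, beside 50.4% of all genes. The background probe sets rich in G and C bases were also higher, by 0.04 to 0.15. In that comparison GEM was at -0.08 and NR4A3 at -0.39 on its brightest probe set, with its other probe sets at 0.26 and -0.13. After DDIT3 came HERPUD1, at 1.45 with delta72 and 0.88 with WT, HSPA5, at 1.19 and 0.93, and DNAJB9, at 0.73 and 0.62.

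**Figure D5:**
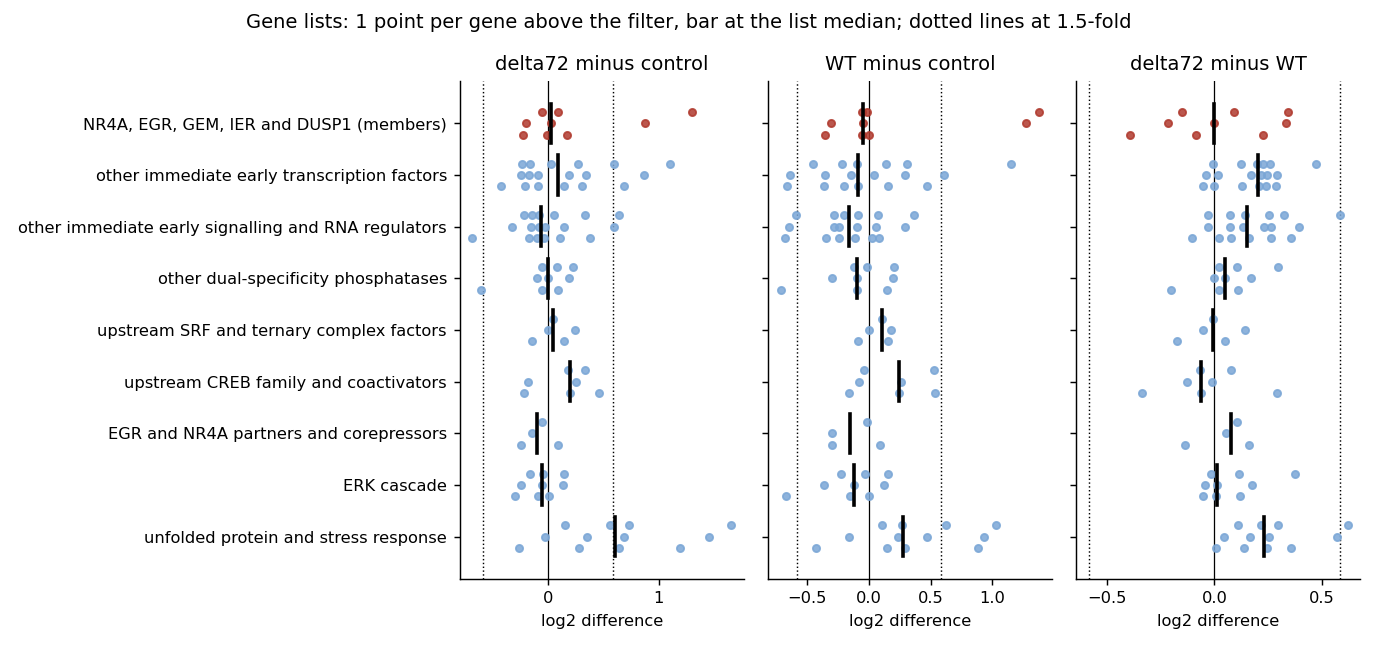
Log2 differences of the members (red) and of the genes of 8 other lists (blue), 1 point per gene above the filter, with a bar at each list's median and dotted lines at 1.5-fold. The medians of the 9 members are 0.03, -0.05 and 0, with GEM and NR4A3 apart from the rest against control, and the stress response list has medians of 0.60, 0.28 and 0.23.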

How the data were processed

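Biotin-labelled cRNA from 100 ng of total RNA was hybridised to an Affymetrix 3' expression array, per the labels' protocols. Partek and Affymetrix Expression Console are named in the submitters' processing notes. For the background correction and the normalization, the method is not given in the sources used here. A value was deposited by the authors per array for 49395 probe sets, taken as deposited log2 intensities because all lay between 2.07 and 14.56 with medians of 5.94 (delta72), 5.93 (WT) and 5.95 (control).

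Probe sets were named from the platform annotation, 44988 with 1 symbol, and 0 symbols needed updating through RefSeq. The probe set with the highest mean stood for its gene. Genes below the 40th percentile of that mean over non-control probe sets (log2 5.27) were left out, so that 12232 of 18132 genes remained. Differences were computed in Python 3.11.15 with pandas 2.3.3. With 1 array per condition there was no test, the number of arrays limits the precision, and a count is by fold alone. The SD over probe sets describes probes on the same arrays.

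The members and the lists were chosen with earlier results of these data known. Named were all members, up to 4 genes of each list with the largest difference in any comparison, and the 3 genes nearest to each of 6 members. Counting was checked on simulated data for WT minus control over 12232 genes: 100 of 100 genes set 3-fold higher and 100 of 100 set 3-fold lower were counted. The simulated spread was that of delta72 minus WT, an SD of 0.13, against 0.26 in WT minus control. This checks the counting step alone. Results of 1 item are not reported here. The alternatives were a common median, quantile normalization, each gene's median over its probe sets, no filter, a 60th percentile filter and a 2-fold threshold. The median over probe sets was taken of the levels on each array, so it can set different probe sets against each other.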

Additional observations from a re-analysis of the deposited data

How the results depend on the processing

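Of the members, the count at least 1.5-fold from control was 2 with delta72 and 2 with WT. With each gene's median over its probe sets it was 1 with delta72 and 1 with WT, because NR4A3 dropped out, and with the 60th percentile filter it was 1 and 1, because NR4A3, NR4A2 and EGR3 were no longer among the genes. At 2-fold it was 1 with delta72 and 2 with WT. Between both forms it was 0 under each of these settings. Under the common median, quantile normalization and no filter the counts did not differ from those given. The NR4A3 difference with WT was -0.0555 with the median over probe sets, against 1.27 on the brightest, and the reason that its probe sets disagree was not tested. Of 81 recomputed differences of single members, 72 stayed within the pooled SD between probe sets of a gene and 9 moved by more, all with the median over probe sets. Of the 81, 5 had the other sign. With the median over probe sets these were NR4A3 with WT and, for delta72 minus WT, NR4A3 at 0.26 and EGR3 at 0.09. The others were IER3 with delta72 at the common median (-0.0044) and EGR3 with WT under quantile normalization (0.02). Of 150 recomputed list medians, 148 stayed within that SD. Over all genes, 40 were at least 1.5-fold higher with delta72 than with WT without the filter and 11 at the 60th percentile filter, against 22 as reported, and 16 and 0 were lower, against 5. GEM ranged from 1.26 to 1.30 with delta72 and from 1.34 to 1.38 with WT. No paired analysis was possible because each condition had 1 array. Dim probe sets near the filter value limit what can be read for NR4A2, NR4A3 and EGR3.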

Other observations

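Some probe sets held exactly the same value on a pair of arrays, among them the dimmest NR4A1 probe set, which read 3.94 on both the WT and the control array, and the brightest NR4A2 probe set, which read 5.61 on both the delta72 and the WT array. Such ties were found for 379 of 49293 non-control probe sets between delta72 and control, for 346 between WT and control and for 341 between delta72 and WT.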
